A study of Mus musculus with 1 sample.

Results

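Orphan and adhesion G-protein-coupled receptors were described in the macrophage-like mouse line RAW264.7. The members are the genes whose symbol in the array's annotation is Gpr with a number, or the name of an adhesion receptor of families A to G, L or V (Adgr names, with the older Emr and Cd97). The pattern took 94 probes of 90 genes, of 20690 named probes and 19321 named genes on the array, and updating the symbols through a RefSeq gene table gave the same 90 genes. The pattern uses symbols and no measured values, and it was proposed with earlier results of these data known. Of the 90 genes, 25 are adhesion receptors and 65 carry a Gpr name.

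The sample was the parental RAW264.7 line, grown in RPMI-1640 with 10% fetal calf serum and not treated with ENU, on 1 one-colour Cy5 array. RAW264.7 comes from a mouse tumour induced by Abelson virus, so it models a macrophage but is a single transformed line. The study set this line against lines mutated with ENU, an alkylating mutagen, and sorted for failure to take up peroxiredoxin; arrays of those lines were not analysed here. With 1 array no difference between conditions can be given, there is no p-value, and every interval covers only the counting of genes.

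G-protein-coupled receptors cross the membrane repeatedly and pass an outside signal to heterotrimeric G proteins. Orphan receptors are those whose ligand was unknown when they were named, and several have since been paired with lipids, protons or metabolites. Adhesion receptors carry a long outer part with adhesion domains, which in many of them is cut off the membrane part by the protein itself and stays bound to it. In macrophages such receptors are known for steering migration, sensing acid and fatty acids, and binding cell surfaces.

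Signals are spot medians in arbitrary units. A gene takes its highest probe and is called at either of 2 limits. The empty-spot limit, 22.98, is the mean plus 2 SD of the empty spots. The chemosensory limit, 55.8, was set at percentile 95 of 1221 probes for smell, taste and vomeronasal receptors, most of which a macrophage line is not known to use. These chemosensory receptors themselves passed the empty-spot limit in 37.3% of 1210 genes, so a signal between the limits is weak evidence of a transcript. Spots of the same positive control repeated over the array varied by a CV of 4.98% and 5.37% (24 spots each). These controls read 12934 and 29507.5 on average, far above every member, so their CV does not measure error near the limits. Of 12 macrophage markers, a list drawn up with earlier results of these data known and so no independent check of the label, 12 passed the chemosensory limit, among them Csf1r, the receptor for the growth factor CSF-1, at 642. Of 39 measured markers of other cell types, 22 passed the empty-spot limit and 2 the chemosensory limit, namely Ly6g at 66.7 and S100a8 at 60.2, both granulocyte genes, and the range of these markers was 18.3 to 66.7.

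Most of the 90 receptor genes gave little or no signal. Over the empty-spot limit lay 49, or 54.4% (exact Clopper-Pearson 95% interval 43.6 to 65.0), against 72.8% of all named genes. Over the chemosensory limit lay 18, or 20.0% (12.3 to 29.8), against 42.7% of all named genes. The remaining 31 lay between the limits and 41 did not pass the empty-spot limit. The median of the members was 23.7, just over the empty-spot limit, and that of all named genes was 40.1. At percentile 99 of the chemosensory probes, 146, the count was 9 of 90, or 10.0%, against 27.5% of all named genes. Of the 90 genes 11 read over 100, which is 12.2%, against 33.1% of all named genes. Without 8 Gpr-named proteins that are not receptors of the usual kind, described further on, 42 of 82 passed the empty-spot limit, or 51.2%, and 12 passed the chemosensory limit, or 14.6% (7.80 to 24.2).

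**Figure D1:**
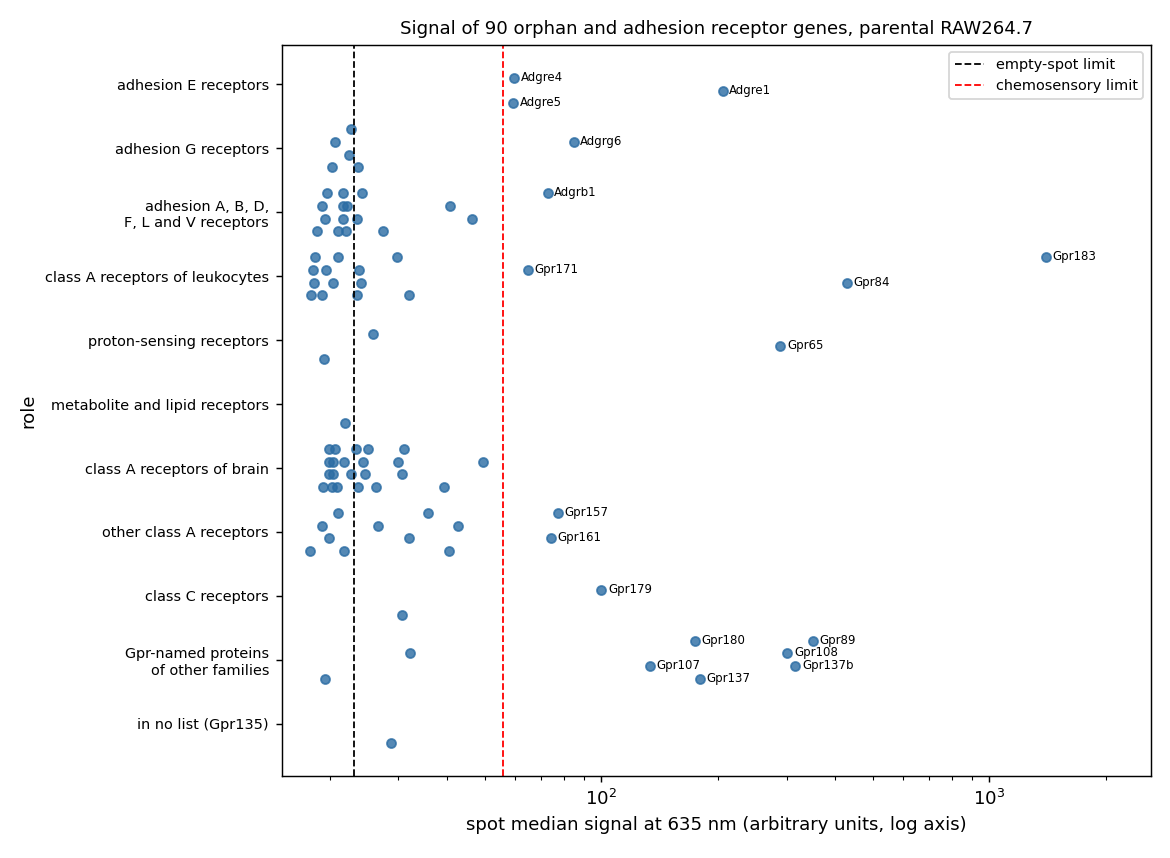
Signal of the 90 genes by role, 1 point per gene at its highest probe, on a log axis in arbitrary units; points are spread vertically only to separate them. The dashed lines are the empty-spot limit (22.98) and the chemosensory limit (55.8), and the 18 genes over the second are named.

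**Figure D2:**
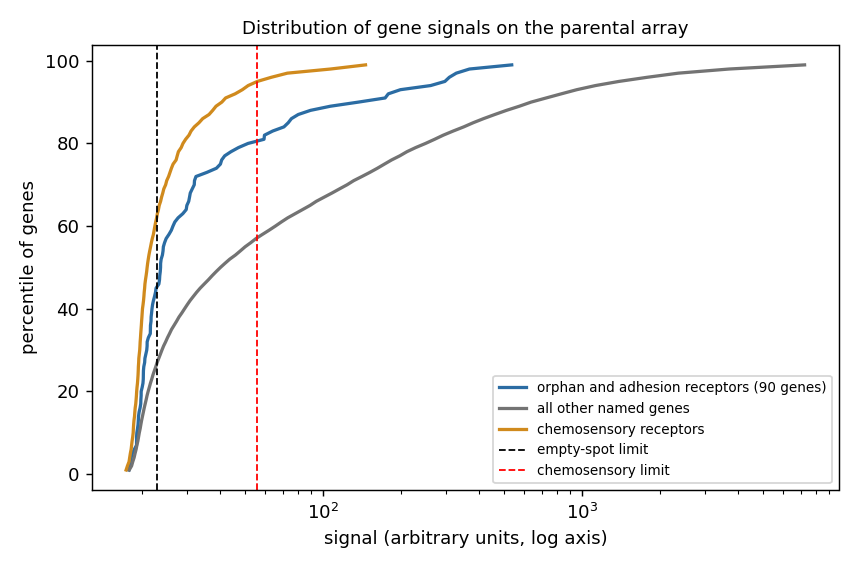
Percentiles 1 to 99 of gene signal (log axis, arbitrary units) for the 90 members, all other named genes and the chemosensory receptors on the single parental array. The members have a median of 23.7 against 40.3 for all other named genes and 21.0 for the chemosensory receptors.

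Among class A receptors of leukocytes, 3 genes stood over the chemosensory limit and 13 did not. That share was 18.8% (4.05 to 45.6), and its interval holds the 42.7% of all named genes. Gpr183 (probe M300021868), known as EBI2 and guided by oxysterols such as dihydroxycholesterol, read 1396, or 60.7 times the empty-spot limit. Its local background read 290, its brightest adjacent spot read 92.6, and the authors' deposited table gives 668. Gpr84 (probe M300017944), a receptor for medium-chain fatty acids that inflammation induces in myeloid cells, read 430, with a local background of 208 and 199 in the authors' deposited table. Gpr171 (probe M300020786), known in T cells and as a receptor of the peptide BigLEN in brain, read 64.8 over a local background of 17.9. These 3 genes were thus read at levels from just over the chemosensory limit to far above it.

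The 3 measured proton-sensing receptors, which are activated by acid outside the cell, fell into all 3 ranges. Gpr65 (probe M200001080), known as TDAG8, read 289 over a local background of 187, at 12.6 times the empty-spot limit. Its brightest adjacent spot read 46.3, and why the local background read higher than that was not tested. Gpr132, a receptor of leukocytes that oxidised fatty acids also activate, lay between the limits at 25.8, and Gpr4 was not over the empty-spot limit at 19.3.

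The sequence before the start site was available for 3 of these 4 receptors over the chemosensory limit and is shown here because CpG dinucleotides, set in capitals, are few in it. Each line gives 250 bases upstream of the annotated start, 5′ to 3′ on the gene's strand, from RefSeq on GRCm38.p6. The annotated start is not known to be the one used in RAW264.7.
Gpr183, chr14:121965194-121965443, minus strand: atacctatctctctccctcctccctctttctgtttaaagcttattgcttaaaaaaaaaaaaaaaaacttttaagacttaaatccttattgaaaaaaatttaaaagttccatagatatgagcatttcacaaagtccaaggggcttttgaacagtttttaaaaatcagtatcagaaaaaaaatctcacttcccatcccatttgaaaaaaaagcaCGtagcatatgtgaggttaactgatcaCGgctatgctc
Gpr84, chr15:103310439-103310688, minus strand: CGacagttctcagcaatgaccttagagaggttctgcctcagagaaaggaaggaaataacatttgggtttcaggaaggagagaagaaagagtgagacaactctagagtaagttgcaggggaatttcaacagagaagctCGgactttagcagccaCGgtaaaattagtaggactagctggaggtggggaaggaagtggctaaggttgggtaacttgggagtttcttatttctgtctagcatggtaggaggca
Gpr65, chr12:98268385-98268634, plus strand: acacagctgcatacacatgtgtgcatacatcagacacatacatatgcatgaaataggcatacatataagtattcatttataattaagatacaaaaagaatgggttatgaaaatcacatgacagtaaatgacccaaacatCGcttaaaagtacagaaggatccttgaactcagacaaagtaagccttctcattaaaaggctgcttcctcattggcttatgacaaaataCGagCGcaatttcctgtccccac
The printed stretches hold 2 CpG in Gpr183, 3 in Gpr84 and 3 in Gpr65, and their G and C content is 32.0%, 46.0% and 36.8%. Over windows of 300 bases, observed CpG over that expected from the C and G counts was 0.443 in Gpr183. This ratio was 0.204 in Gpr84 and 0.282 in Gpr65, and its median over the windows of all genes was 0.3885. Gpr183 was therefore low in CpG count but not for its base content.

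Of the other 13 leukocyte class A receptors, 5 lay between the limits. Gpr35, a receptor for kynurenic acid and other metabolites, read 31.9, and Gpr18, proposed as a receptor for N-arachidonoyl glycine, read 29.8. Gpr160 read 24.0, Gpr17 read 23.7 and Gpr34, a receptor for lysophosphatidylserine that microglia are known for, read 23.5. These last 3 stood within 1.05 times the empty-spot limit. Not over the empty-spot limit were Gpr1, a chemerin receptor, at 18.0, Gpr15, a gut-homing receptor of T cells, at 18.3, Gpr33 at 19.1, Gpr55, which binds lysophosphatidylinositol, at 21.0, and Gpr82 at 20.3. The close relatives Gpr141 and Gpr141b read 19.5 and 18.1, and Gpr174, a lymphocyte receptor for lysophosphatidylserine, read 17.9. The whole group of 16 therefore split into 3 genes over the chemosensory limit, 5 between the limits and 8 not over the empty-spot limit. Gpr119, a receptor for oleoylethanolamide and the only measured member among the metabolite and lipid receptors, read 21.9 and was not over the empty-spot limit.

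All 3 measured adhesion receptors of the E family, which carry EGF-like repeats and are known from myeloid cells, passed the chemosensory limit. With 3 genes the interval is 29.2 to 100, which holds the 42.7% of all named genes. Adgre1 (probe M300000601), the macrophage antigen F4/80, read 205 over a local background of 101. Adgre4 (probe M300008508), a myeloid receptor of the mouse, read 59.6 over 24.7, and Adgre5 (probe M300000344), known as CD97 and a partner of the complement regulator CD55, read 59.3 over 28.6. The last 2 stood only 1.07 and 1.06 times over the chemosensory limit.

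The adhesion receptors of the other families mostly did not pass the empty-spot limit. Of 6 genes of the G family, 1 passed the chemosensory limit. Adgrg6, known as Gpr126 for its part in Schwann cell myelination, read 84.8 on probe M400005417 and 22.5, not over the empty-spot limit, on probe M300011968, so its call rests on 1 of 2 probes. Adgrg7 read 23.7, between the limits. Not over the empty-spot limit were Adgrg1 at 22.4, known as Gpr56 from brain development, Adgrg2 at 20.3, a receptor of the male reproductive tract, Adgrg3 at 20.5, known from granulocytes, and Adgrg4 at 22.6.

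Of 16 adhesion receptors of families A, B, D, F, L and V, 1 passed the chemosensory limit and 5 lay between the limits. Adgrb1 (probe M300009507), known as BAI1 and as a receptor for phosphatidylserine on dying cells, read 72.7. Its local background was 62.6, a spot adjacent to it read 1178, and the signal minus local background was 10.1, so the call was lost with local background subtracted; the part of the bright spot in this reading was not tested. Between the limits were Adgra2, a Wnt7 co-receptor of brain endothelium, at 46.3, the latrophilin Adgrl2 at 40.8, Adgrf5, known from lung epithelium, at 27.4 on 1 of its 2 probes, Adgra1 at 24.2 and Adgrd1 at 23.5. The second probe of Adgrf5 read 18.5. Not over the empty-spot limit were Adgra3 at 19.7, Adgrb2 at 21.6, Adgrb3 at 19.4, Adgrf1 at 21.6, Adgrf2 at 22.0, Adgrf4 at 21.6, the latrophilins Adgrl1 and Adgrl3 at 21.0 and 18.5, the endothelial Adgrl4 at 19.1 and Adgrv1, of hair cells and photoreceptors, at 22.1. Together 11 of 25 adhesion receptors passed the empty-spot limit, or 44.0% (24.4 to 65.1), and 5 passed the chemosensory limit, or 20.0% (6.83 to 40.7), against 72.8% and 42.7% of all named genes. Of the 57 Gpr-named genes left without the 8 proteins of other families described next, 31 passed the empty-spot limit, or 54.4% (40.7 to 67.6), and 7 the chemosensory limit, or 12.3% (5.08 to 23.7).

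**Figure D3:**
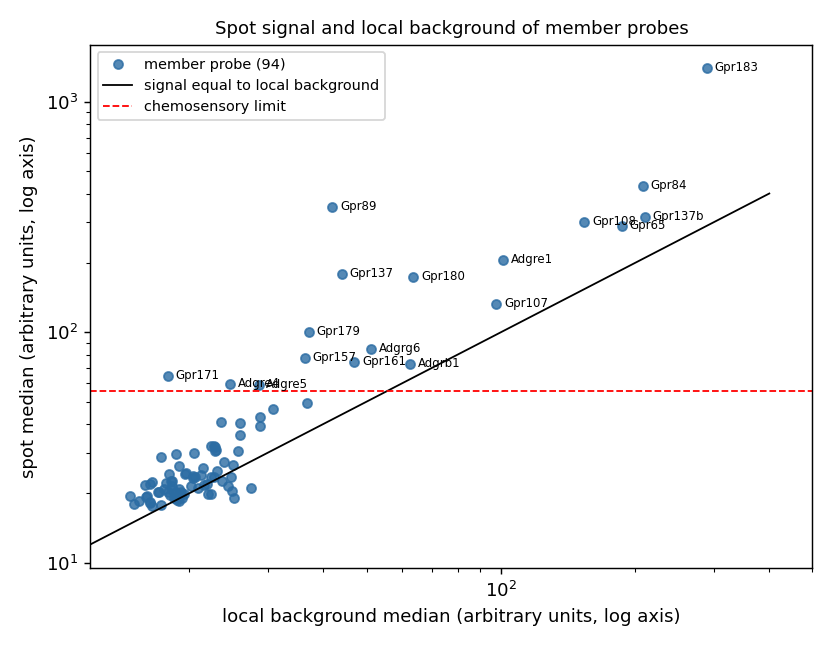
Spot median against the local background median around the spot for the 94 member probes, both in arbitrary units on log axes; the solid line marks equal values and the dashed line the chemosensory limit. Adgrb1 lies close to the line of equal values, at 72.7 against 62.6, and Gpr89 and Gpr183 lie well above it.

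Genes for proteins that carry a Gpr name but belong to other families of membrane proteins mostly gave signal. Of these genes 6 of 8 passed the chemosensory limit, and 12 of the other 82 members did, a difference that was not tested. The empty-spot limit was passed by 7 of the 8, or 87.5% (47.3 to 99.7), and the share over the chemosensory limit was 75.0% (34.9 to 96.8), against 42.7% of all named genes, which that interval holds. Gpr89 (probe M200014591), an anion channel of the Golgi that holds its pH, read 351 over a local background of 41.9. Gpr137b (probe M300002686), a lysosomal membrane protein, read 316 over 210; a spot adjacent to it read 3381, and a copy of the gene, Gpr137b-ps, is annotated, whose transcripts may also bind the probe. Gpr108 and Gpr107, related proteins of the Golgi, read 302 and 133, and their local backgrounds were 154 and 97.7. Gpr137 read 180 over 44.0 and Gpr180 read 175 over 63.7. Gpr155, a lysosomal cholesterol sensor, lay between the limits at 32.1, and Gpr137c was not over the empty-spot limit at 19.4. Of the 18 members over the chemosensory limit, 7 had an adjacent spot over 1000. The share over all probes was not counted, so nothing about these genes is read from that count. Members not over the empty-spot limit had bright adjacent spots too, such as Gpr3 at 20.8 beside 27491 and Gpr55 at 21.0 beside 19879. The brightest adjacent spot read 1178 at Adgrb1, 1293 at Adgre1, 1011 at Gpr84, 1775 at Gpr137, 1150 at Gpr180, 2129 at Gpr89 and 3381 at Gpr137b, and its part in these readings was not tested.

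Start sites of these genes are shown for contrast with the leukocyte receptors above, again with CpG dinucleotides in capitals and from the same source.
Gpr180, chr14:118136877-118137126, plus strand: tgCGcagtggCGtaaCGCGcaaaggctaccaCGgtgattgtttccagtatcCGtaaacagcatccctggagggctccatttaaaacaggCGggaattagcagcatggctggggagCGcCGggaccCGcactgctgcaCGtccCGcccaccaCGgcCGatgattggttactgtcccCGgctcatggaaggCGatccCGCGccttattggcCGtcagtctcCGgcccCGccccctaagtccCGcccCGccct
Gpr137, chr19:6942451-6942700, minus strand: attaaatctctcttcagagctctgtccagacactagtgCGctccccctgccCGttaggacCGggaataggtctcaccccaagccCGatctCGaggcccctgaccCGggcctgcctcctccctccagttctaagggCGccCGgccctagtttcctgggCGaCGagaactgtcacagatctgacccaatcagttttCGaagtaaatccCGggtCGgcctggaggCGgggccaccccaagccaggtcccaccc
Gpr89, chr3:96905299-96905548, minus strand: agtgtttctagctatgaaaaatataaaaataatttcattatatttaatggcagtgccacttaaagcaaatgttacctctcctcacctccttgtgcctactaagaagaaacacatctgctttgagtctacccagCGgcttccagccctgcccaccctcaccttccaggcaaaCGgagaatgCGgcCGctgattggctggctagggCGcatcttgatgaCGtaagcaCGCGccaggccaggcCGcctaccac
The printed stretches hold 23 CpG in Gpr180, 14 in Gpr137 and 9 in Gpr89. Gpr137 has 3 annotated windows, of which the first listed is used. Over the full window of 300 bases, 250 before and 50 after the start, the 7 matched genes of this group had a median of 20 CpG in a range from 11 to 29, whereas the 27025 windows of all genes had a median of 7. Gpr155 and Gpr137c, which did not pass the chemosensory limit, held 20 and 22 CpG.

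The CpG count of the leukocyte receptors had the same median on both sides of the chemosensory limit. RefSeq windows were found for 69 of the 90 genes, and none for Adgre1 among others. The 3 matched leukocyte and proton-sensing receptors over the chemosensory limit held 3 to 4 CpG with a median of 3, and the 13 matched ones not over it also had a median of 3, in a range from 0 to 26. The 13 matched members over the chemosensory limit had a median of 11, the 20 between the limits 13.5 and the 36 not over the empty-spot limit 7, so the medians did not follow the order of the signals. The 13 were made up of 5 proteins of other families, with a median of 20, and 8 receptors. The receptors had a median of 3, in a range from 1 to 38. The letters GAGGAAGT, a form of the site of the myeloid factor PU.1, occurred on either strand in 3 of the 69 windows, or 4.35%, against 3.28% of all 27025. Those 3 were the windows of Adgre4, Gpr55 and Gpr137c, of which Adgre4 passed the chemosensory limit.

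**Figure D4:**
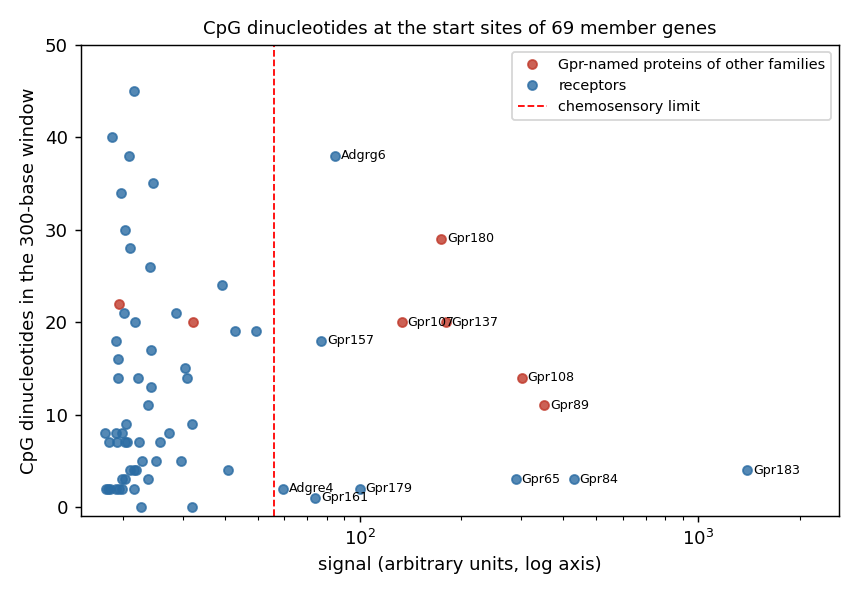
CpG dinucleotides in the 300-base window at the annotated start against gene signal (log axis, arbitrary units) for the 69 members with a RefSeq window. The Gpr-named proteins of other families hold 11 to 29, Gpr183, Gpr84 and Gpr65 hold 3 to 4, and all 69 windows together span 0 to 45.

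None of the class A receptors known mainly from brain passed the chemosensory limit. Of 22 measured, 0 did so, with an upper bound of 15.4% (exact Clopper-Pearson), against 42.7% of all named genes. Over the empty-spot limit lay 11 of them. Between the limits were Gpr101, a hypothalamic receptor, at 49.5 on 1 probe and 18.7 on the other, Gpr83 at 39.4, Gpr45 at 31.0, Gpr27 at 30.6, Gpr149 at 29.9, Gpr151 of the habenula at 26.3, Gpr62 at 25.0, Gpr153 at 24.6 and Gpr162 at 23.3. Gpr6 and Gpr12, which are active without a ligand and raise cyclic AMP, read 24.3 and 23.7, while their relative Gpr3 read 20.8 and was not over the empty-spot limit. Gpr173, Gpr21, Gpr22, Gpr26 and Gpr37 read 20.4, 20.6, 19.9, 19.8 and 20.2, not over it either, and the other 5 of this group read 19.2 to 22.7. In the 5 measured markers of neurons and glia, 3 passed the empty-spot limit and 0 the chemosensory limit. Their intervals, 14.7 to 94.7 and 0 to 52.2, hold the 72.8% and 42.7% of all named genes.

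In the list of other class A receptors, whose class was not tested gene by gene, 2 of 12 passed the chemosensory limit. That share was 16.7% (2.09 to 48.4), and its interval holds the 42.7% of all named genes. Gpr157 (probe M300018698), which signals from the cilium of neural progenitors, read 77.1 over a local background of 36.3. Gpr161 (probe M400002442), a ciliary brake on Hedgehog signalling, read 74.0 over 46.9. Between the limits lay Gpr19 at 42.7, Gpr152 at 40.6, Gpr182, an endothelial receptor, at 35.8, Gpr146 at 32.0 and the melanosome protein Gpr143 at 26.6. Gpr142, Gpr165, Gpr176, a receptor of the circadian clock centre, Gpr20 and Gpr75 read 17.7 to 21.7 and did not pass. Gpr135, which was put in no group, lay between the limits at 28.8.

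Both class C receptors, relatives of the metabotropic glutamate receptors, passed the empty-spot limit. With 2 genes the interval is 15.8 to 100, which holds the 72.8% of all named genes. Gpr179 (probe M400003768), a scaffold of retinal bipolar cells, read 100.01 over a local background of 37.0 and passed the chemosensory limit. Gpr158, a neuronal relative, lay between the limits at 30.6.

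**Figure D5:**
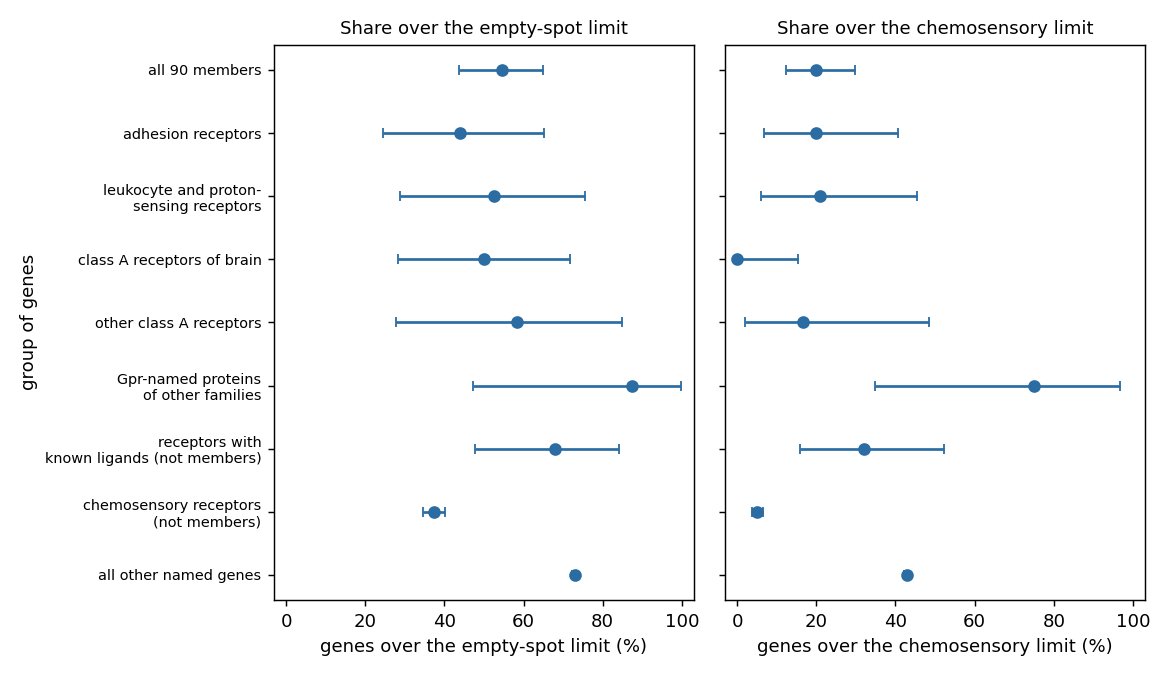
Share of genes over the empty-spot limit (left) and the chemosensory limit (right) with exact Clopper-Pearson 95% intervals, which cover the counting of genes only. At the chemosensory limit the members stand at 20.0%, the brain receptors at 0, the Gpr-named proteins of other families at 75.0% and all other named genes at 42.8%.

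Receptor genes that lie next to each other on a chromosome formed 10 pairs. In 6 of them the genes fell on different sides of a limit, against 59.2% of 15829 adjacent pairs of all measured protein-coding genes, so the count is near that background and nothing about receptors is read from it. The pairs, picked after their values were seen, were taken as protein-coding genes with no other between their starts in the RefSeq table, where both are members or a member and a listed receptor. Gpr183 read 1396 and its neighbour Gpr18 on chromosome 14 read 29.8. Gpr171 read 64.8, and next to it on chromosome 3 P2ry14, a receptor for UDP-glucose, read 32.9 and lay between the limits. On chromosome 8 Adgre5 read 59.3 and Adgrl1 read 21.0. The other 3 such pairs were Adgrl2 with Adgrl4, at 40.8 and 19.1, Adgrf5 with Adgrf1, at 27.4 and 21.6, and Gpr34 with Gpr82, at 23.5 and 20.3. In the remaining 4 pairs no gene passed the empty-spot limit. They were Adgrg1 with Adgrg3, Adgrf4 with Adgrf2, Gpr141b with Gpr141, and Gpr142 with Gprc5c.

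Related receptors outside the pattern were counted in the same way. Of 28 measured receptors for chemoattractants, lipids and nucleotides with known ligands, 19 passed the empty-spot limit, or 67.9% (47.6 to 84.1), and 9 the chemosensory limit, or 32.1% (15.9 to 52.4), and both intervals hold the shares of all named genes. Cx3cr1, the fractalkine receptor, read 1374, the UDP receptor P2ry6 read 418, the lysophosphatidic acid receptor Lpar6 read 186 and the complement receptor C3ar1 read 98.5, while Cxcr4 read 75.5 and the cannabinoid receptor Cnr2 read 64.0. Not over the empty-spot limit were Ccr1 at 18.8, Lpar1 at 19.4, Ltb4r1 at 21.7 and P2ry1 at 18.5. Of 29 genes from orphan families with other names or since renamed for a ligand, 7 passed the empty-spot limit and 2 the chemosensory limit, namely Ffar4, a receptor for long-chain fatty acids, at 89.0, and the R-spondin receptor Lgr6 at 59.1. These shares were 24.1% (10.3 to 43.5) and 6.90% (0.846 to 22.8), against 72.8% and 42.7% of all named genes. The chemokine scavenger Ackr3 read 19.0, the chemerin receptor Cmklr1 20.6, the fatty acid receptor Ffar1 21.6 and the reported oestrogen receptor Gper1 20.8. The cadherin-type adhesion receptors Celsr1 and Celsr2 lay between the limits at 33.3 and 38.7, and Celsr3 was not over the empty-spot limit at 20.5.

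Transcripts of the proteins that receptors signal through were read on the same array. Of 16 G protein alpha subunits, 15 passed the empty-spot limit, or 93.8% (69.8 to 99.8), and 7 the chemosensory limit, or 43.8% (19.8 to 70.1), against 72.8% and 42.7% of all named genes, both inside these intervals. The inhibitory subunits Gnai2 and Gnai3 read 1354 and 1218, Gna13 read 368, Gna11 read 111 and the haematopoietic Gna15 read 96.1. Gnal, of olfactory neurons, read 138 on 1 probe and 18.0 on the other, and Gnaz was not over the empty-spot limit at 18.9. Of 9 measured arrestins and receptor kinases, 6 passed the empty-spot limit and 3 the chemosensory limit. These shares were 66.7% (29.9 to 92.5) and 33.3% (7.49 to 70.1), and both intervals hold the shares of all named genes. Arrb2 read 425, Arrb1 read 391 on 1 probe and 31.6 on the other, and the kinase gene Grk6 read 76.9. The visual arrestin Sag at 22.1, the retinal kinase gene Grk1 at 20.6 and Grk4 at 20.5 did not pass.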

How the data were processed

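The array was made by Toray. Per the labels' protocols, RNA of parental RAW264.7 cells was amplified, coupled to Cy5 and hybridised. Per the file headers, the deposited scanner intensity is the spot median at 635 nm, with the local background median apart, from 3 gains joined by fitted lines (r2 0.999926 and 0.999889). The authors' deposited table holds a second intensity, a whole number per probe, and the steps behind it are not stated in the labels or the file. Its values exist for 16689 probes. Among the member probes a value exists only where the spot median passed the empty-spot limit, and it rises with the spot median. The table is therefore no independent reading of these probes.

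Spots of a probe were averaged and the highest probe was taken per gene. The empty-spot limit used 2464 of 2736 empty spots after 5% were left out at each end (mean 20.6, SD 1.18); 7.13% of all empty spots exceed it. Symbols came from the platform annotation, updated through GRCm38.p6 RefSeq genes. Limit calling was run on simulated data in which most true signals lay far above the simulated empty spots. That run therefore does not measure error for genes near the limits. Intervals are exact Clopper-Pearson at 95%. The number of arrays, 1, limits the precision, and no comparison of lines was made. Tools were Python 3.11.15, pandas 2.3.3, scipy 1.17.1, R 4.3.3 and limma 3.58.1 (normexp, offset 50).

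The members and lists were chosen with earlier results of these data known. Named were all members over the chemosensory limit, all adhesion members, all of the leukocyte, proton-sensing, metabolite, class C and other-family lists, those between the limits elsewhere, and up to 6 per list not over the empty-spot limit in alphabetical order. Of lists outside the members up to 6 over the chemosensory limit and 4 not over the empty-spot limit are named; the marker lists were drawn up with earlier results known, and the markers named and the neighbouring pairs were picked after their values were seen. A comparison of protein features was planned and not run. Promoter windows came from RefSeq. Alternatives tried were other empty-spot limits, background corrections, the authors' table, probe rules and membership rules.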

Additional observations from a re-analysis of the deposited data

How the results depend on the processing

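The shares kept within their own 95% interval in 146 of 154 reruns. Many reruns could hardly leave it, because some settings change no gene in a list and small lists have wide intervals. For the 2 class C receptors the interval is 15.8 to 100. The count of 146 is therefore no measure of robustness. The other 8 follow. The members over the empty-spot limit stood at 43.3% with the 99th percentile of the blanks, 40.0% with local background subtracted and 41.1% with normexp, where all named genes stood at 67.8%, 63.2% and 63.2%. With local background subtracted and with normexp the brain receptors stood at 22.7% and 27.3%. The members over the chemosensory limit fell to 10.0% with the 99th percentile of the chemosensory probes, against 27.5% of all named genes, as a higher limit calls fewer genes. Gpr119, alone in its list, passed with 1 SD in place of 2 and with the limit of its own block, at 100% for that list of 1. Of the 49 genes over the empty-spot limit 32 kept the call in every setting run, and 34 of the 41 others passed in none. Of the 18 over the chemosensory limit 9 kept the call in every setting, and the other 9 lost it with the 99th percentile of the chemosensory probes. Adgrb1 also lost it with local background subtracted and Adgrg6 with its lowest probe. The cause of the shifts under background correction was not tested. No paired analysis was possible because there is 1 sample. Within 1 SD of the blanks from the empty-spot limit lay 13 members.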
